A study of Homo sapiens with 4 samples.

Results

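The 10 genes described here are the enzymes and regulators of polyamine metabolism: ODC1, AMD1, SRM and SMS for synthesis, SAT1, SMOX and PAOX for catabolism, and OAZ1, OAZ2 and AZIN1 for the antizyme system. They were chosen by symbol, and each matched 1 Ensembl identifier among the 64252 gene rows of the table. RNA was sequenced from SK-N-BE(2), an established human neuroblastoma line with amplified MYCN. Cells had been transfected with a short hairpin RNA (shRNA) against IRF2BP2, a transcriptional co-regulator (2 libraries), or with a scramble shRNA as control (2 libraries). All libraries came from the same line, and the labels give neither the hairpin sequences nor the time after transfection. Total counts lay between 30847699 and 34684651 per library. IRF2BP2 itself had 89.7 and 87.6 CPM (a gene's counts scaled to a common library total) in the IRF2BP2 shRNA libraries, against 242.8 and 238.4 CPM in the scramble libraries.

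Polyamines (putrescine, spermidine and spermine) are small organic cations that bind nucleic acids and are needed for translation and cell division. Ornithine decarboxylase makes putrescine, and aminopropyl groups taken from decarboxylated S-adenosylmethionine then turn it into spermidine and spermine. Antizymes bind ornithine decarboxylase and send it to the proteasome, antizyme inhibitors bind the antizymes, and acetylation followed by oxidation returns the higher polyamines to putrescine. In neuroblastoma ODC1 is known as a transcriptional target of MYCN, and the MYC proteins with their partner MAX bind the E-box CACGTG.

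The promoter sequences of the 2 polyamine genes that rose are shown because MYCN transcripts were also higher. Beside them stand SMS, which did not pass the test and lacks the motif, and from the genes around the pathway DOHH, which rose and holds it, and EIF5A2, which did not pass and holds it. RefSeq windows on GRCh38.p14, which run from 250 bases before to 50 bases after an annotated start, existed for 7 of the 10 genes, in 10 windows. SMOX, PAOX and AZIN1 had no entry. Both strands were covered, because CACGTG reads the same on each. ODC1 has 2 annotated starts on the minus strand. The first window is chr2:10448328-10448577 as printed. The second is chr2:10448002-10448262, printed as far as its last motif. The SRM sequence is chr1:11060019-11060268 (minus strand), that of SMS chrX:21940459-21940708 (plus strand), that of DOHH chr19:3500675-3500924 and that of EIF5A2 chr3:170908638-170908887 (both minus strand). Each is given 5′ to 3′, with CACGTG in capitals.
ODC1, first start: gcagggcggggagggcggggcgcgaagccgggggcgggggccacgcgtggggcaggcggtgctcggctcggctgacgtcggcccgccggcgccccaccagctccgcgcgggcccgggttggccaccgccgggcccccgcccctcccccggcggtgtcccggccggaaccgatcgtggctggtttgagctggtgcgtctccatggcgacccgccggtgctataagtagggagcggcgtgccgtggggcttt
ODC1, second start: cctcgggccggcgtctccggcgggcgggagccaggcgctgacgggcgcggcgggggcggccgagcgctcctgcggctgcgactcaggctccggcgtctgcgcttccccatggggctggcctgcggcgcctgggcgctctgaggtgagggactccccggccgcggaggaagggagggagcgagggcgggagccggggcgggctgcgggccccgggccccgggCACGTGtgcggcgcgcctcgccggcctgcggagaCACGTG
SRM: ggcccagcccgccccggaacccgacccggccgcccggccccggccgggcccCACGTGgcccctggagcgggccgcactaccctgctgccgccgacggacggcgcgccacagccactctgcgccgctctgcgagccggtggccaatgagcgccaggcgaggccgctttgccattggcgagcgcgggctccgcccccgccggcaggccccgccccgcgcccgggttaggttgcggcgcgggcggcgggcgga
SMS: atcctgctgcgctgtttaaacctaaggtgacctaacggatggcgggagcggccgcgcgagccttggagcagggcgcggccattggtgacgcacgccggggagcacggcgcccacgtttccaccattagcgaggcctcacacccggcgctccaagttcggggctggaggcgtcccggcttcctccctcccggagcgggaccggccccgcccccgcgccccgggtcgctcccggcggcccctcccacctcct
DOHH: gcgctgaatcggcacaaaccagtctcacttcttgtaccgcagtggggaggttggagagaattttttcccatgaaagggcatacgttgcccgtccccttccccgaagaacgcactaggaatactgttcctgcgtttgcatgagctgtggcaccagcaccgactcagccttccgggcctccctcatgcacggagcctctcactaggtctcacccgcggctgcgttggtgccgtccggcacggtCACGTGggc
EIF5A2: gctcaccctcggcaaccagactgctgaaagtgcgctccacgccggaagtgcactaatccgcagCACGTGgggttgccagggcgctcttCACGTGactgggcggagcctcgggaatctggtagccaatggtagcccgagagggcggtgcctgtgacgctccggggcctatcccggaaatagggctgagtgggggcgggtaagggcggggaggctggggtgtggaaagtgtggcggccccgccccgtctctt
Of the 7 genes with a window, 2 held CACGTG, ODC1 and SRM. In the window of the second ODC1 start the motif began 29 bases before the start and again at base 6 after it, and in SRM it began 199 bases before the start. The windows of AMD1, SMS, SAT1, OAZ1 and OAZ2 did not hold these letters. Of all 35116 windows, 7.3% held CACGTG, and of all 27305 genes 8.8% had it in at least 1 window. These shares were not matched to the listed genes in expression or base content. A match of 6 letters is a description of the window and was not tested as a binding site.

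With the IRF2BP2 shRNA, 2 of the 10 genes rose, 3 fell and 5 did not pass the test. Across all 19093 genes tested, 42.0% passed, 20.6% higher and 21.4% lower, so 5 of 10 is a share near that of all genes. Of the 13734 protein-coding genes tested, 51% passed. In the CPM range of the 10 genes without PAOX, 55.3% of 11318 genes did. The genes that rose were the synthesis enzymes ODC1 and SRM, and those that fell were PAOX, OAZ2 and AZIN1. The median log2 fold change (IRF2BP2 shRNA over scramble) was 0.01 for the 10 genes and -0.01 for all genes, and the median absolute log2 fold change was 0.35 and 0.31. That median absolute change was 0.29 for the protein-coding genes and 0.24 for the genes in that CPM range. The values of the groups did not overlap for 8 of the 10 genes, 4 of them higher and 4 lower, where 70.4% of all genes did not overlap, 34.4% higher and 36.0% lower. All 10 genes passed the filter on low counts. Calls rest on edgeR's quasi-likelihood test, with p-values adjusted over all genes tested and a threshold of 0.05.

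**Figure D1:**
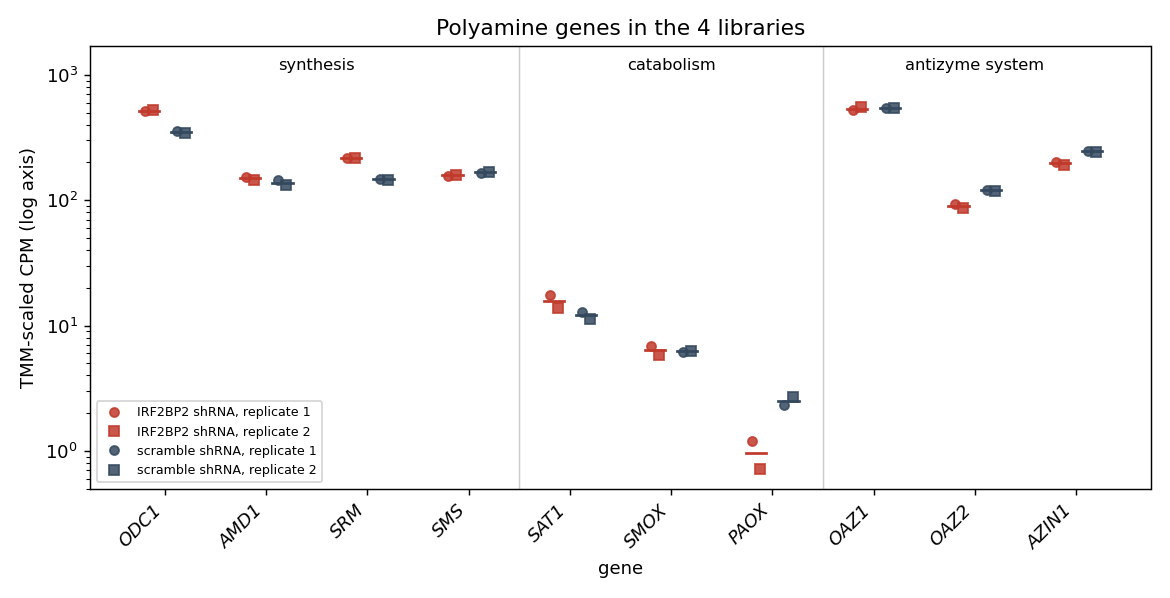
CPM on a log axis of the 10 polyamine genes in each library, with the IRF2BP2 shRNA libraries in red left of the scramble libraries in dark grey, circles for replicate 1, squares for replicate 2 and a line at the mean of a group. The ODC1 and SRM points of the IRF2BP2 shRNA libraries lie above the scramble points, those of PAOX, OAZ2 and AZIN1 below them, and those of SMOX and OAZ1 overlap.

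ODC1, which decarboxylates ornithine to putrescine and limits the rate of the pathway, had 514 and 523 CPM in the IRF2BP2 shRNA libraries, against 354 and 343 CPM in the scramble libraries. Both IRF2BP2 shRNA libraries were higher than both scramble libraries, and the group means were 519 ± 6.04 and 348 ± 7.24 CPM (SD, n = 2 each). ODC1 rose 1.49-fold (log2 fold change 0.57, standard error 0.038, edgeR adjusted p = 3.99e-07). SRM, spermidine synthase, had 216 and 217 CPM with the IRF2BP2 shRNA and 148 and 144 CPM with scramble. Its groups were also apart, and it rose 1.48-fold (log2 fold change 0.57, standard error 0.039, edgeR adjusted p = 5.33e-07). The 95% intervals of the log2 fold change were 0.49 to 0.66 for ODC1 and 0.48 to 0.65 for SRM, so these data do not separate the sizes of the rises. Over all genes tested, 72.1% had a smaller absolute change than ODC1 and 71.6% a smaller one than SRM. ODC1 lies on chromosome 2 from 10439968 to 10448504 and SRM on chromosome 1 from 11054584 to 11060024, both on the minus strand (GRCh38, GENCODE 29).

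The other synthesis enzymes did not pass. AMD1, which makes the aminopropyl donor by decarboxylating S-adenosylmethionine, had 153 and 145 CPM with the IRF2BP2 shRNA, against 144 and 132 CPM with scramble. The higher scramble library lay just under the lower IRF2BP2 shRNA library, and the log2 fold change was 0.11 (unadjusted 95% interval 0.005 to 0.217, edgeR adjusted p = 0.0892). AMD1 was called higher without scramble replicate 1 (0.18, edgeR adjusted p = 0.00462). SMS, spermine synthase, had 156 and 159.9 CPM with the IRF2BP2 shRNA and 166 and 168 CPM with scramble, so that both IRF2BP2 shRNA libraries were slightly lower. Its log2 fold change was -0.08 (95% interval -0.160 to 0.008, edgeR adjusted p = 0.136), and it was called lower with upper quartile scaling (-0.13, edgeR adjusted p = 0.0211) and with a filter at a mean of 10 CPM (-0.12, edgeR adjusted p = 0.0119). The interval of SMS lies wholly below that of SRM. AMD1 lies on chromosome 6 from 110874770 to 110895713, and SMS on chromosome X from 21940573 to 21994835. The pseudogenes AMD1P3 and SRMP2 had means of 7.0 and 2.0 counts, against 4642.2 for AMD1 and 5859.5 for SRM.

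**Figure D2:**
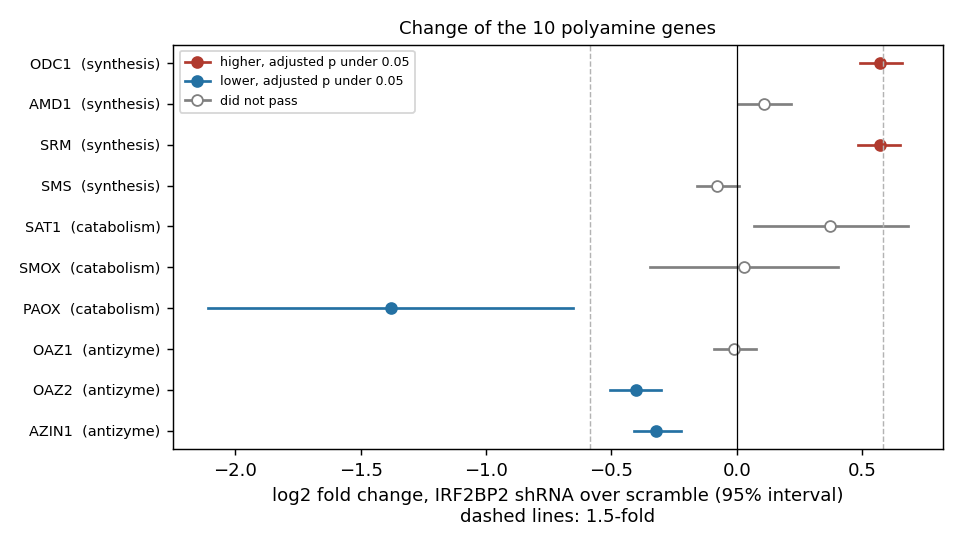
Log2 fold change (IRF2BP2 shRNA over scramble) of the 10 polyamine genes with 95% intervals, filled red where higher and filled blue where lower at an adjusted p under 0.05, open grey where the test did not pass, and dashed lines at 1.5-fold. ODC1 and SRM sit at 0.57, and PAOX, at -1.38, has the widest interval.

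The catabolic genes had low levels. SAT1, the acetyltransferase that marks spermidine and spermine for export or oxidation, had 17.5 and 13.7 CPM with the IRF2BP2 shRNA, against 12.9 and 11.2 CPM with scramble. The lower IRF2BP2 shRNA library was close to the higher scramble library. The log2 fold change was 0.37 (unadjusted 95% interval 0.07 to 0.68) and missed the threshold (edgeR adjusted p = 0.0511). SAT1 was called higher without scramble replicate 1 (0.49, edgeR adjusted p = 0.0269), without IRF2BP2 shRNA replicate 2 (0.54, edgeR adjusted p = 0.0141) and with the size factors of DESeq2 (0.38, edgeR adjusted p = 0.0476), while without IRF2BP2 shRNA replicate 1 its log2 fold change was 0.19 (edgeR adjusted p = 0.417). SMOX, the oxidase that acts on spermine directly, had 6.88 and 5.81 CPM with the IRF2BP2 shRNA and 6.20 and 6.25 CPM with scramble. Its groups overlapped, and the log2 fold change of 0.03 (95% interval -0.35 to 0.40, edgeR adjusted p = 0.914) changed sign with upper quartile scaling.

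PAOX, the peroxisomal oxidase of acetylated polyamines, fell most in size among the 10 genes and was also the least counted. It had 38 and 23 counts (1.19 and 0.719 CPM) in the IRF2BP2 shRNA libraries, against 80 and 82 counts (2.31 and 2.67 CPM) in the scramble libraries. Exact 95% Poisson intervals, which cover counting error only, ran from 0.841 to 1.63 CPM and from 0.456 to 1.08 CPM in the IRF2BP2 shRNA libraries, and from 1.83 to 2.87 CPM and from 2.12 to 3.32 CPM in the scramble libraries. The intervals of the groups did not overlap. PAOX fell to 38.3% of its scramble mean (log2 fold change -1.38, standard error 0.331, edgeR adjusted p = 0.00578). The change of PAOX was larger in absolute size than that of 92.9% of the genes tested. It ranged from -1.06 without IRF2BP2 shRNA replicate 2 (edgeR adjusted p = 0.0477) to -1.78 without IRF2BP2 shRNA replicate 1. PAOX lies on chromosome 10 from 133379234 to 133391694, SAT1 on chromosome X from 23783173 to 23786226 and SMOX on chromosome 20 from 4120980 to 4187747.

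Tested against a change of 1.5-fold with edgeR's glmTreat, 0 of the 10 genes passed, where 8.48% of all genes did, 2.85% higher and 5.63% lower. PAOX came nearest, with an edgeR glmTreat adjusted p = 0.0662 (unadjusted p = 0.005995). With limma voom and with DESeq2, 0 of the 10 genes passed as well. Without IRF2BP2 shRNA replicate 1, PAOX passed (edgeR glmTreat adjusted p = 0.0347).

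**Figure D3:**
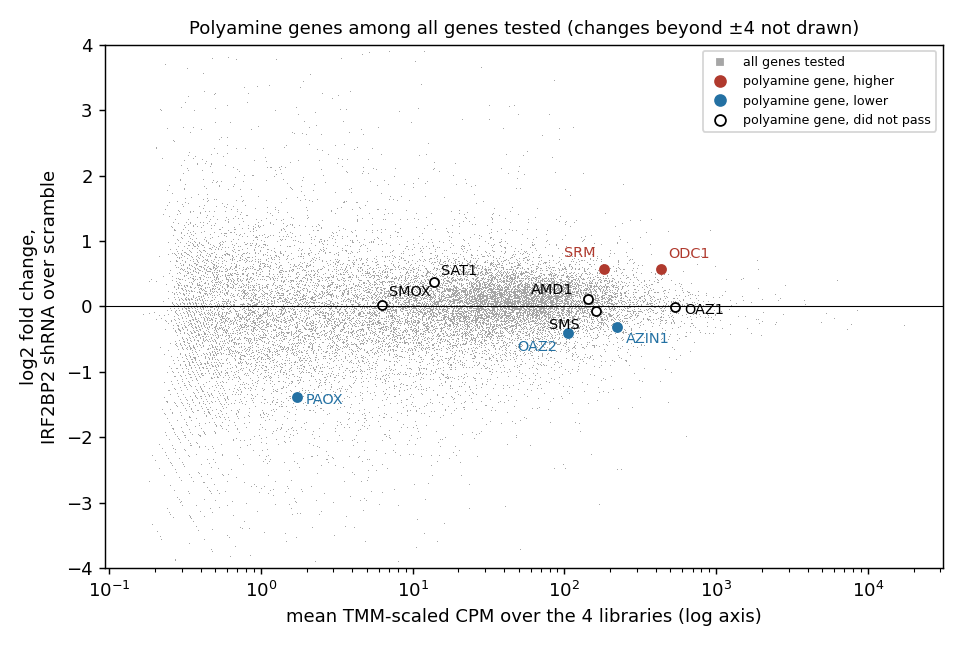
Log2 fold change (IRF2BP2 shRNA over scramble) against the mean CPM on a log axis for all genes tested (grey points), with the 10 polyamine genes marked red where higher, blue where lower and open where the test did not pass. Most of the 10 lie at the well-counted side of the plot and within 1 unit of 0, while PAOX lies among the sparsely counted genes at -1.38.

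The antizyme genes did not move alike. OAZ1, the main antizyme, whose protein is made only after a programmed ribosomal frameshift, had 526 and 549 CPM with the IRF2BP2 shRNA, against 540.5 and 539 CPM with scramble. The scramble values lay between the IRF2BP2 shRNA values. Its log2 fold change was -0.01 (95% interval -0.09 to 0.08, edgeR adjusted p = 0.912), and the sign turned with the size factors of DESeq2. OAZ2, a second antizyme, had 93.97 and 87.0 CPM with the IRF2BP2 shRNA and 120.1 and 119.4 CPM with scramble. Both IRF2BP2 shRNA libraries were lower, and OAZ2 fell to 75.6% of its scramble mean (log2 fold change -0.40, standard error 0.046, edgeR adjusted p = 2.87e-05). The intervals of OAZ1 and OAZ2 do not overlap. Counts per gene do not show how much of either transcript was translated past the frameshift.

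AZIN1, the antizyme inhibitor that resembles ornithine decarboxylase but lacks its activity, had 202 and 191 CPM with the IRF2BP2 shRNA, against 249 and 242 CPM with scramble. The groups were apart, and AZIN1 fell to 80.3% of its scramble mean (log2 fold change -0.32, standard error 0.043, edgeR adjusted p = 1.08e-04). OAZ1 lies on chromosome 19 from 2269509 to 2273490, OAZ2 on chromosome 15 from 64687573 to 64703281 and AZIN1 on chromosome 8 from 102826357 to 102893864. Strand was not marked in these libraries, so reads of overlapping genes on opposite strands cannot be told apart. JSRP1 shares 236 exon bases with OAZ1 and had a mean of 91.5 counts, against 17419.8 for OAZ1, and AZIN1-AS1 shares 344 with AZIN1 and had 53.2 counts, against 7156.0 for AZIN1.

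Levels of different genes were compared as CPM per kilobase of the principal GENCODE transcript. In IRF2BP2 shRNA cells the order of the mean levels was OAZ1 (468 CPM per kb), ODC1 (195), SRM (171), SMS (86.0), OAZ2 (46.8), AMD1 (43.3), AZIN1 (41.7), SAT1 (14.7), SMOX (2.84) and PAOX (0.513). In scramble cells it was OAZ1 (470.2 CPM per kb), ODC1 (131), SRM (116), SMS (90.7), OAZ2 (61.9), AZIN1 (51.9), AMD1 (40.1), SAT1 (11.3), SMOX (2.79) and PAOX (1.34), so AMD1 and AZIN1 changed places. With the IRF2BP2 shRNA the libraries of AMD1 (44.5 and 42.2 CPM per kb) and AZIN1 (42.8 and 40.5 CPM per kb) overlapped, and OAZ2 lay just above them at 48.6 and 44.98 CPM per kb. The other neighbours in either order were apart in both libraries. The order rests on the length used. Per kilobase of all annotated exons, ODC1 had 175 and OAZ1 156 CPM per kb in IRF2BP2 shRNA cells. In scramble cells ODC1 had 117 and OAZ1 157 CPM per kb. SRM and SMS, measured in this way, were level in scramble cells, at 77.09 and 77.12 CPM per kb. In IRF2BP2 shRNA cells they had 114 and 73.1 CPM per kb. On that length AZIN1 lay above AMD1 in both groups, at 30.6 and 21.2 CPM per kb in IRF2BP2 shRNA cells and at 38.1 and 19.6 CPM per kb in scramble cells, and OAZ2 lay below both, at 11.8 CPM per kb in IRF2BP2 shRNA cells and 15.6 in scramble cells.

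Ratios within a library do not depend on how libraries are scaled, and for ratios between single genes lengths cancel when groups are compared. The level of such a ratio within a group does depend on the lengths used. The ratio of ODC1 to OAZ1, of the enzyme to its main antizyme, was 0.423 and 0.412 in the IRF2BP2 shRNA libraries, against 0.283 and 0.276 in the scramble libraries. The ratio of ODC1 to AZIN1 was 4.53 and 4.86 with the IRF2BP2 shRNA, and 2.53 in each scramble library. SRM to SMS, the synthases of spermidine and of spermine, stood at 2.01 and 1.97 with the IRF2BP2 shRNA and at 1.30 and 1.25 with scramble. These ratios were higher in both IRF2BP2 shRNA libraries. The ratio of AMD1 to ODC1 was 0.229 and 0.214 with the IRF2BP2 shRNA, against 0.314 and 0.297 with scramble, and that of AZIN1 to OAZ1 was 0.0935 and 0.0847, against 0.112 and 0.109 with scramble. Both were lower in the IRF2BP2 shRNA libraries. The synthesis enzymes summed to 30.02 and 38.7 times the level of SAT1 with the IRF2BP2 shRNA, against 31.6 and 35.5 times with scramble, so this ratio overlapped. As a sum over several genes, it depends on the lengths used. With 2 libraries against 2, an exact two-sided permutation test cannot give a p under 0.333, so the ratios are given without a test.

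**Figure D4:**
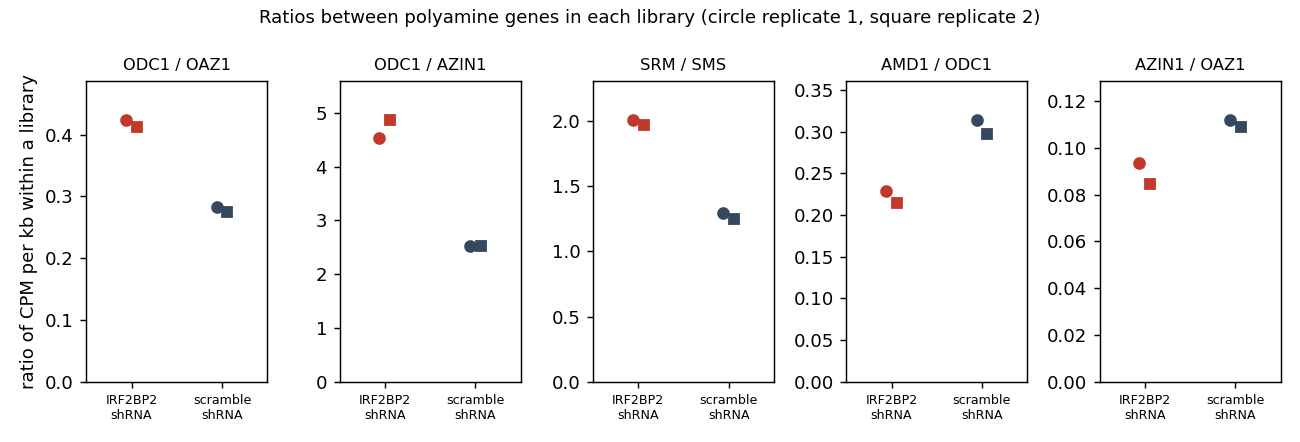
Ratios of CPM per kb between pairs of polyamine genes in each library, with the IRF2BP2 shRNA libraries left of the scramble libraries, circles for replicate 1 and squares for replicate 2, and each axis starting at 0. ODC1 to OAZ1, ODC1 to AZIN1 and SRM to SMS are higher with the IRF2BP2 shRNA, at 0.423 and 0.412 for ODC1 to OAZ1, and the other ratios are lower.

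Summed over the 4 synthesis enzymes, the level was 494 and 498 CPM per kb in the IRF2BP2 shRNA libraries, against 382 and 373 CPM per kb in the scramble libraries. ODC1 made up 39.3% and 39.6% of that sum with the IRF2BP2 shRNA and 34.9% and 34.7% with scramble. The sum and this share depend on the lengths used. The 3 catabolic genes summed to 20.2 and 15.9 CPM per kb with the IRF2BP2 shRNA and to 16.1 and 14.8 CPM per kb with scramble, a sum carried by SAT1. Here the lower IRF2BP2 shRNA library lay below the higher scramble library, so the catabolic sums overlapped. The synthesis sums, in which only ODC1 and SRM were called, were apart, as were the values of 70.4% of all genes tested.

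MYCN, which is known to activate ODC1, had 7075 and 7174 CPM in the IRF2BP2 shRNA libraries, against 5361 and 5517 CPM in the scramble libraries, and rose (log2 fold change 0.39, edgeR adjusted p = 5.09e-07). MYCNOS, on the opposite strand, shares 98 exon bases with it and had a mean of 6223.8 counts, against 202767.2 for MYCN. MAX had 78.4 ± 3.18 CPM with the IRF2BP2 shRNA and 66.8 ± 3.85 CPM with scramble (SD, n = 2 each; log2 fold change 0.23, edgeR adjusted p = 0.00674), and missed the threshold once IRF2BP2 shRNA replicate 2 was left out (edgeR adjusted p = 0.0528). MYC had 9 and 13 counts with the IRF2BP2 shRNA and 0 and 8 counts with scramble and was not tested. The rise of MYCN was smaller than that of ODC1 or SRM on the log2 scale, and whether it bears on theirs was not tested.

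Among 30 further genes around the pathway, 25 could be tested, of which 8 rose, 3 fell and 14 did not pass. That is 44% called, against 42.0% of all genes and 51% of protein-coding genes, and their median log2 fold change was 0.07. The 5 genes not tested were SATL1, ARG1, MAT1A, SLC22A2 and SLC22A3, with at most 13 counts in a library. Spermidine is also the substrate of the hypusine modification of the translation factor EIF5A. EIF5A had 444 and 468 CPM with the IRF2BP2 shRNA, against 336 and 377 CPM with scramble, and rose (log2 fold change 0.36, edgeR adjusted p = 9.20e-04). Its near-copy EIF5AL1 had a mean of 231.0 counts, against 13104.0 for EIF5A, and GPS2 on the opposite strand had 909.8. DOHH, which completes the modification, had 48.6 and 54.8 CPM with the IRF2BP2 shRNA, against 32.2 and 37.8 CPM with scramble (log2 fold change 0.56, edgeR adjusted p = 5.67e-04). DHPS, which begins it, had 71.8 ± 2.65 CPM with the IRF2BP2 shRNA and 77.6 ± 1.13 CPM with scramble (SD, n = 2 each; edgeR adjusted p = 0.0987), and was called lower with upper quartile scaling (-0.16, edgeR adjusted p = 0.0238) and with the filter at a mean of 10 CPM (-0.15, edgeR adjusted p = 0.0203).

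Of 8 tested genes listed for precursor supply, among them those for ornithine, arginine and S-adenosylmethionine, 3 rose and 2 fell. That is 62.5% called, against 42.0% of all genes and 51% of protein-coding genes, and it rests on 8 genes only. The cationic amino acid transporter SLC7A1 had 147 and 159.6 CPM with the IRF2BP2 shRNA, against 95.5 and 95.8 CPM with scramble, and rose 1.60-fold (edgeR adjusted p = 3.67e-07). SLC7A2, of the same family, rose by 0.30 and ALDH18A1, which makes a precursor of ornithine and proline, by 0.42 on the log2 scale. MAT2A, which makes S-adenosylmethionine, had 477 and 479 CPM with the IRF2BP2 shRNA, against 549 and 525 CPM with scramble, and fell slightly (log2 fold change -0.17, edgeR adjusted p = 0.00395). It shares 558 exon bases with GGCX on the opposite strand, which had a mean of 1450.0 counts against 16438.8 for MAT2A. ARG2, the mitochondrial arginase, had 3.47 and 2.78 CPM with the IRF2BP2 shRNA and 6.74 and 4.53 CPM with scramble (log2 fold change -0.85, edgeR adjusted p = 0.0140). The ARG2 call was lost without scramble replicate 1 (edgeR adjusted p = 0.148) or IRF2BP2 shRNA replicate 2 (edgeR adjusted p = 0.0915), and 37.39% of its exon bases overlap VTI1B, which had a mean of 2511.0 counts, against 143.2 for ARG2.

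Among transporters, SLC3A2, the heavy chain of several amino acid transporters that has been linked to polyamine export, had 307 and 312 CPM with the IRF2BP2 shRNA, against 148.5 and 148.9 CPM with scramble. It rose 2.08-fold and passed the 1.5-fold test (edgeR glmTreat adjusted p = 8.05e-07), as did 8.48% of all genes. It was the only one of the 25 to do so, but others passed under alternatives. SLC18B1 passed with upper quartile scaling (edgeR glmTreat adjusted p = 0.0439), with the filter at a mean of 10 CPM (0.0454) and without scramble replicate 1 (0.0253), and SLC7A1 without IRF2BP2 shRNA replicate 1 (0.0288). ATP13A3, a polyamine transporting ATPase, had 228 and 223 CPM with the IRF2BP2 shRNA, against 187 and 175.5 CPM with scramble (log2 fold change 0.32, edgeR adjusted p = 1.10e-04). SLC18B1, the vesicular polyamine transporter, had 10.3 and 9.03 CPM with the IRF2BP2 shRNA, against 15.9 and 19.2 CPM with scramble, and fell 1.81-fold (edgeR adjusted p = 2.81e-04). Of the 5 methionine salvage genes, which recycle the by-product of spermidine and spermine synthesis, MTAP rose and the others did not pass. MTAP had 142 and 133 CPM with the IRF2BP2 shRNA, against 121 and 118 CPM with scramble (log2 fold change 0.19, edgeR adjusted p = 0.00323), and missed the threshold when IRF2BP2 shRNA replicate 1 was left out (0.15, edgeR adjusted p = 0.0643).

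No paralog of the 10 genes passed edgeR's test, and those other than SAT2 were sparsely counted. SAT2 had 9.76 and 9.75 CPM with the IRF2BP2 shRNA, against 8.79 and 9.38 CPM with scramble (edgeR adjusted p = 0.588). The antizyme inhibitor AZIN2 had 0.939 and 0.938 CPM with the IRF2BP2 shRNA, against 1.18 and 1.04 CPM with scramble (edgeR adjusted p = 0.620). OAZ3, known as the testis antizyme, had 54 and 48 counts with the IRF2BP2 shRNA, against 32 and 47 counts with scramble (edgeR adjusted p = 0.413), and it overlaps MRPL9, whose mean was 3063.2 counts against 45.2 for OAZ3. Of 26 further genes with a promoter window, 6 held CACGTG, against an unmatched 8.8% of all 27305 genes. DOHH, where the motif began 9 bases before the start, and ALDH18A1 rose, while EIF5A2, MRI1, ENOPH1 and ADI1 did not pass. The windows of EIF5A, SLC7A1, MTAP, ATP13A3 and SLC3A2, which also rose, did not hold CACGTG. SLC7A2, which rose as well, had no window. Whether the motif bears on the changes was not tested. EIF5A2, with 21.3 and 20.6 CPM with the IRF2BP2 shRNA and 19.4 and 16.6 CPM with scramble (edgeR adjusted p = 0.115), held the motif 187 and 162 bases before the start.

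**Figure D5:**
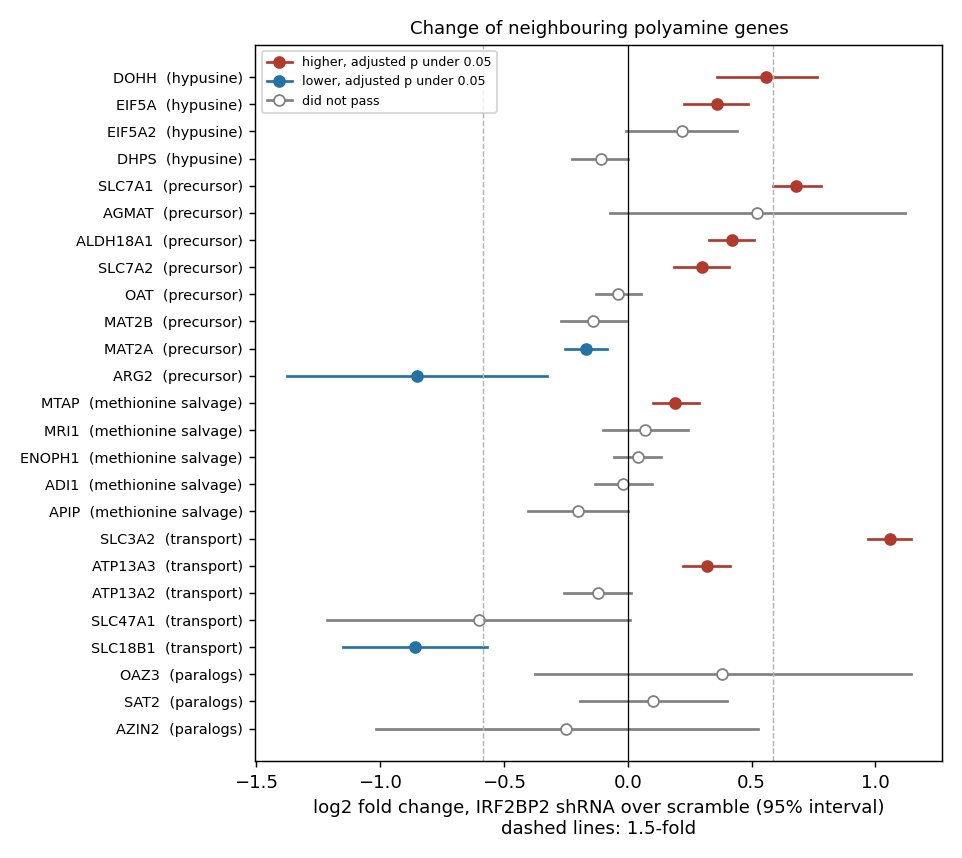
Log2 fold change (IRF2BP2 shRNA over scramble) with 95% intervals of the 25 tested genes around the pathway, by role, filled red where higher and filled blue where lower at an adjusted p under 0.05 and open grey where the test did not pass, with dashed lines at 1.5-fold. SLC3A2 lies farthest to the right at 1.06, and SLC18B1 and ARG2 farthest to the left at -0.86 and -0.85.

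The libraries also differed in other ways. All 6 neuroblastoma markers listed (PHOX2A, HAND2, GATA3, ISL1, TH and CHGA) lay at or above 58.2 CPM in every library, but summed to 1511 and 1530.4 CPM in the IRF2BP2 shRNA libraries, against 2339 and 2561 CPM in the scramble libraries. CHGA had 69.3 and 72.9 CPM with the IRF2BP2 shRNA, against 374 and 433 CPM with scramble, while GATA3 had 245 ± 7.09 CPM with the IRF2BP2 shRNA and 234 ± 3.29 CPM with scramble (SD, n = 2 each) and was not called (edgeR adjusted p = 0.237). The 13 markers of other cell types summed to 89.5 and 88.7 CPM with the IRF2BP2 shRNA, against 35.8 and 36.9 CPM with scramble, mostly from COL1A1 and COL3A1. PTPRC, with 3.19 and 2.34 CPM with the IRF2BP2 shRNA against 4.06 and 6.06 CPM with scramble, and EPCAM, with 1.66 and 1.84 CPM with the IRF2BP2 shRNA against 3.23 and 3.32 CPM with scramble, went the other way and were called lower (edgeR adjusted p = 0.0185 and 0.0121), and CD3E and PECAM1 had 0 counts in all 4 libraries. Mitochondrially encoded genes took 6.42% of the counts in each IRF2BP2 shRNA library and 7.27% and 7.10% in the scramble libraries. The part of these differences in the polyamine results was not tested. In bulk libraries, fewer cells expressing a gene and less of its RNA per cell cannot be told apart.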

How the data were processed

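Raw counts per gene, with 1 column per library, were used as deposited. Reads were aligned with HISAT2 2.2.0 to hg38, per the submitters' processing notes, and libraries were made with the TruSeq RNA kit, per the labels' protocols; the counter is not given in the sources used here. Columns named NC were taken as the scramble libraries, since the other columns are named for IRF2BP2.

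Counts were fitted in edgeR 4.0.16 (R 4.3.3) after filterByExpr, with TMM scaling and robust quasi-likelihood F-tests by group, and p-values adjusted by the Benjamini-Hochberg method over 19093 genes. CPM are TMM-scaled. Standard errors were taken from the log2 fold change and the F statistic. Alternatives used limma 3.58.1 and DESeq2 1.42.0, other scalings and filters, and each library left out. The procedure was tested on simulated data as a check of the code only. Changes were simulated in well-counted genes alone, so this does not bear on the calls given here.

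The genes and lists, and the rule on which genes are named (all 10 genes, fixed further genes, and others called past 1.5-fold), were chosen with earlier results of these data known. SLC7A2, ALDH18A1 and MAX were named after their values were seen, as were genes listed for a motif or as not tested. The labels do not say whether replicates were separate cultures. The p-values therefore reflect the spread of these libraries alone, which may be technical. Within groups the chi-square per degree of freedom was 5.26 (IRF2BP2 shRNA) and 7.01 (scramble), so no library was a copy of another. Some genes of the lists are not reported here. Symbols were found for 40995 of 64252 rows.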

Additional observations from a re-analysis of the deposited data

How the results depend on the processing

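Calls of ODC1, SRM, OAZ2 and AZIN1 kept their direction and their side of the threshold under all 12 alternatives, and PAOX under the 11 that tested it. The log2 fold change lay between 0.52 and 0.60 for ODC1, between 0.52 and 0.59 for SRM, between -0.46 and -0.35 for OAZ2, between -0.37 and -0.27 for AZIN1 and between -1.78 and -1.06 for PAOX. PAOX and SMOX did not pass the filter at a mean of 10 CPM. Leaving out 1 library gave 2 to 4 polyamine genes higher and 0 to 1 past 1.5-fold. With the number in the sample titles as a replicate block, 4 were higher in place of 2 (AMD1, edgeR adjusted p = 0.0295, and SAT1, 0.0275), and SLC7A1 passed the 1.5-fold test (0.0479). This block called 3950 of all 19093 genes higher and 3950 lower, against 3930 and 4086 without it. The deviations of libraries with the same number in their titles correlated at only 0.0604. With 2 pairs a pairing cannot be shown, so the numbers in the titles are read as names. Among the further genes, 3 were lower, against 7 with upper quartile scaling and 6 when genes needed a mean of 10 CPM, with DHPS, MAT2B, APIP and ATP13A2 added under both. Upper quartile scaling moved the median log2 fold change of all genes to -0.06, against -0.01 with TMM, and called 3315 of 19093 genes higher and 4615 lower, against 3930 and 4086 with TMM, and the 10 CPM filter called 3161 of 10383 lower. The log2 fold change of OAZ1 turned positive with the size factors of DESeq2 (0.002), the DESeq2 Wald test (1e-04), no filter on low counts (0.0086), and when scramble replicate 1 (0.0041) or IRF2BP2 shRNA replicate 1 (0.0283) was left out, where the values with 1 library left out ran from -0.0344 to 0.0283. That of SMOX turned negative with upper quartile scaling (-0.0204) and in the fit that left out IRF2BP2 shRNA replicate 1 (-0.0951), with values from -0.0951 to 0.1488 over the libraries left out. The causes were not tested. PAOX rests on 23 to 82 counts per library.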
